A study of Mus musculus with 6 samples.

Results

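Sp1 to Sp8 are zinc finger transcription factors that share a DNA-binding domain and recognise GC-rich boxes. The genes were found by name in the deposited gene table, 8 rows of 36699, and 7 of the 8 were tested by the authors. Each row names a single gene. They were placed in 3 groups from background knowledge: Sp5 and Sp8, which Wnt signalling induces, the broadly expressed Sp1, Sp2, Sp3 and Sp4, and the tissue-restricted Sp6 and Sp7.

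RNA was measured in embryoid bodies, the aggregates in which mouse embryonic stem cells begin to differentiate, on day 3 of culture. All 6 libraries came from A2Lox.cre cells, an embryonic stem cell line made for inserting a doxycycline-inducible transgene, here Flag-tagged Lef1. The minus_Dox group (3 libraries) received no doxycycline, and the plus_Dox group (3 libraries) received it for 24 h from day 2. No library of doxycycline-treated cells without the transgene was analysed here, so doxycycline and Lef1 cannot be told apart. The cells had been kept on mouse embryonic fibroblasts that were stripped off before aggregation, and nothing in the labels tells if the libraries are separate cultures, so p-values measure only the spread between these libraries, which may be technical.

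In the canonical Wnt pathway, beta-catenin enters the nucleus and binds Tcf/Lef factors such as Lef1, which recognise a short DNA core, and the complex switches on target genes. Sp5 and Sp8 are such targets in the primitive streak and tail bud, where they are partly redundant and help Tcf/Lef factors to activate other Wnt targets. Sp1 and Sp3 are general activators of promoters with GC boxes, Sp2 is linked to cell proliferation, and Sp4 is best known from neurons. Sp6 acts in tooth and skin epithelium, and Sp7, also called osterix, in bone formation.

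The table gives 1 FPKM value per gene and group (fragments scaled to transcript length and sequencing depth) and none for single libraries, so the levels carry no SD and the depth of the libraries is unknown. Standard errors (SE) of log2 folds were derived from the deposited test statistic, and intervals are 95%. A gene passed when its q-value in the authors' deposited table was at most 0.05. Lef1 itself is at 7.56 FPKM in minus_Dox and 51.0 FPKM in plus_Dox in the authors' deposited table. Of 10 markers of pluripotent and epiblast cells, 9 in minus_Dox and 10 in plus_Dox were at 5 FPKM or more. The exception, Dnmt3b, is listed at 0 in minus_Dox in a row marked as too high in depth, which is no sign of absence.

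Of the 7 tested Sp genes, 3 passed, against 12.2% of all tested genes. Sp5 and Sp8 rose, Sp4 fell, and Sp1, Sp2, Sp3 and Sp6 did not pass. The fall of Sp4 did not pass once a trend of the folds on transcript GC content and length was removed, and the rises did. In bulk samples, more or fewer cells of a type cannot be told apart from more or less RNA per cell. Among all tested genes 8.98% rose and 3.22% fell. Sp1 and Sp3 had lower values in plus_Dox and Sp2 and Sp6 higher ones, none of which passed.

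**Figure D1:**
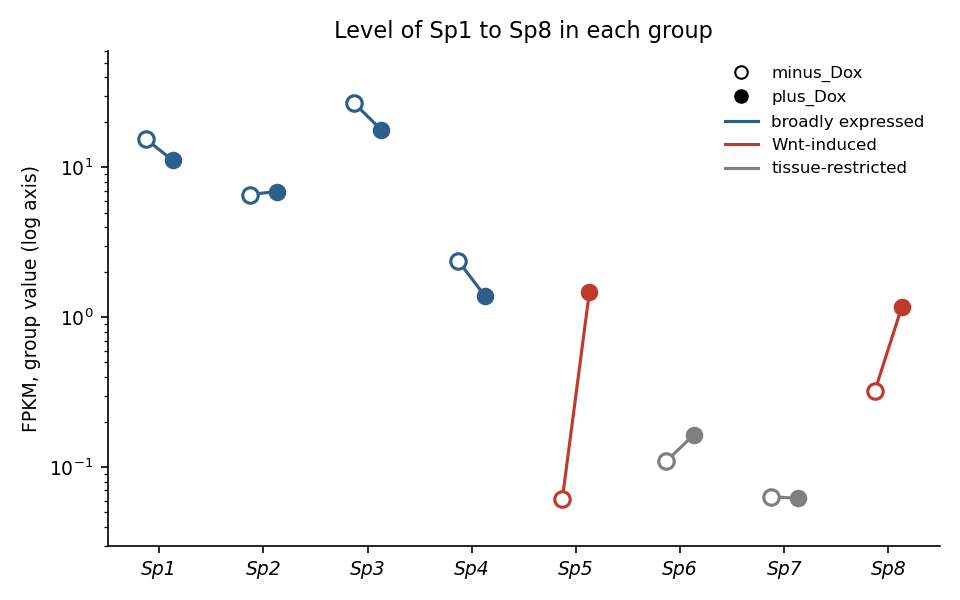
FPKM of Sp1 to Sp8 as given for each group in the authors' deposited table (vertical log axis); open circles are minus_Dox and filled circles plus_Dox, 1 pooled value each with no error, coloured by family group. Sp5 goes from the lowest of the 8 values, 0.0615 FPKM, to the fourth highest, 1.48 FPKM.

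Sp5 showed the largest change of the family. It is listed at 0.0615 FPKM in minus_Dox and at 1.48 FPKM in plus_Dox in the authors' deposited table. The rise was 24.1-fold, with an interval of 13.8-fold to 42.3-fold (log2 fold 4.59 with an SE of 0.41, and q listed as 0, in the authors' deposited table). Among 1489 rises of single genes that reached 1 FPKM, 7 exceeded that of Sp5. Where the higher group had 0.5 to 2 FPKM, as for Sp5 and Sp8, 5.28% of 2972 tested genes rose. The starting level was low: over a transcript of 2100 nt, FPKM times length in kb gives 0.129 in minus_Dox, against 3.12 in plus_Dox. The fold therefore depends on a denominator near the lower end of the measurable range. These products are rates scaled to sequencing depth and not numbers of fragments. The numbers of fragments are unknown, since the depth of the libraries is not given.

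Sp5 lies on chromosome 2 between 70312979 and 70315786 (mm9, named in the submitters' processing notes), and no other row of the table overlaps this interval. The promoter of Sp5 is shown because Lef1 recognises the core searched for in it. Promoters are RefSeq's, in GRCm38.p6, and run from 250 bases before to 50 after an annotated start. The Sp5 window is chr2:70474673-70474972, plus strand, printed 5′ to 3′. Capitals mark the Tcf/Lef core CTTTGA or CTTTGT and the GC box GGGCGG, on either strand.
Sp5: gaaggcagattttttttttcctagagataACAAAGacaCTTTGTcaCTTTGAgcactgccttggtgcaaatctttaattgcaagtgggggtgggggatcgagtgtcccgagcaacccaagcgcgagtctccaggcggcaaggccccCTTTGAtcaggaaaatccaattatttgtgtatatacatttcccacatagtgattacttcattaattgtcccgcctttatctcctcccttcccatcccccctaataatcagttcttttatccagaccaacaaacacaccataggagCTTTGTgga

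The window held 5 Tcf/Lef cores and no GC box. Counted from the start, the cores begin at bases -221, -212, -204, -104 and 41, so 3 of them lie close together at the far end. The core at -104 is the longer form CTTTGAT, which contains CTTTGA and occurs in 3.73% of all promoters. Of 32851 promoters of 300 bases, 31.2% held at least 1 core and 12 (0.0365%) held 5 or more. Within the 10003 promoters of 40% to 50% GC, a range chosen around the 45.0% of Sp5 after its value was seen, 7 (0.0700%) held 5 or more. Among 28 promoters of other Wnt pathway genes of the streak, targets and mediators, 28.6% held at least 1 core. A match is a description of the letters and does not show binding, and a link of the cores to the rise was not tested.

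Sp8, the closest partner of Sp5 in function, is listed at 0.323 FPKM in minus_Dox and 1.18 FPKM in plus_Dox in the authors' deposited table. It rose 3.65-fold, with an interval of 2.31-fold to 5.76-fold (log2 fold 1.87 with an SE of 0.34, and q = 3.2e-06, in the authors' deposited table). Here 49 of the 1489 rises were larger. Its row spans 120084801 to 120091051 of chromosome 12 (mm9) and overlaps no other.

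RefSeq gives 3 starts for Sp8, and the data do not show which was used. The first (chr12:118846079-118846378) and the third (chr12:118847309-118847608) held no Tcf/Lef core and no GC box. The second, chr12:118846983-118847282 on the plus strand, held 1 core on the minus strand at base -50, in the longer form CTTTGAA found in 5.14% of promoters, and 1 GC box at base -14. It is shown for the contrast with Sp5, marked in the same way.
Sp8, second start: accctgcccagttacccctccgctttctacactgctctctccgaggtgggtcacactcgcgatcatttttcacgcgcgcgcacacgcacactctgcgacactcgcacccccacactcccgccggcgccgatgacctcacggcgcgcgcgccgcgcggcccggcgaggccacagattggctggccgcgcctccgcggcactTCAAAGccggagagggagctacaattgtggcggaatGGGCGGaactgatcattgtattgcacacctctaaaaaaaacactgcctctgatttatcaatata

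Sp5 and Sp8 changed their order as well as their level. In minus_Dox, Sp8 stood 5.26 times above Sp5 on the FPKM scale, and in plus_Dox Sp5 stood 1.26 times above Sp8. The log2 fold of Sp5 exceeded that of Sp8 by 2.72, with an interval of 1.68 to 3.77 that assumes independent errors for the pair. Summed over both genes, the level is 0.385 FPKM in minus_Dox and 2.66 FPKM in plus_Dox, or 0.740% and 6.63% of the summed FPKM of Sp1 to Sp8. The levels and shares carry no error, so neither the order of Sp5 and Sp8 nor that of any neighbouring Sp genes could be judged against a spread.

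Sp4, the broadly expressed gene at the lowest level, is listed at 2.39 FPKM in minus_Dox and 1.38 FPKM in plus_Dox in the authors' deposited table. Its row, at 119473405 to 119539913 of chromosome 12 (mm9), overlaps no other. The log2 fold was -0.79 (SE 0.21, interval -1.20 to -0.39, q = 0.0030 in the authors' deposited table), so plus_Dox stood 42.3% lower. Of 514 falls of single genes that reached 1 FPKM, 213 were larger. With this fall and the rises of the Wnt-induced pair, Sp4 went from 7.39 times the level of Sp8 to 1.17 times, and Sp5 came to 1.08 times the level of Sp4.

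Sp3 is the family member with the highest level in both groups, at 26.9 FPKM in minus_Dox and 17.9 FPKM in plus_Dox in the authors' deposited table. Its log2 fold of -0.59 (SE 0.24, interval -1.06 to -0.12) did not pass, at q = 0.088 in the authors' deposited table. Sp1 has the next level, 15.5 FPKM in minus_Dox and 11.1 FPKM in plus_Dox in the authors' deposited table. For Sp1 the log2 fold was -0.48 (SE 0.41, interval -1.29 to 0.33, q = 0.57 in the authors' deposited table), which leaves room for a fall of more than 2-fold. Of 8530 tested genes with at least 5 FPKM in either group, as for Sp1, Sp2 and Sp3, 4% fell.

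Sp2 barely differed in value, with 6.59 FPKM in minus_Dox and 6.91 FPKM in plus_Dox in the authors' deposited table. The log2 fold was 0.07 (SE 0.40), and its interval of -0.72 to 0.85 spans changes in both directions. With the median shift of all genes subtracted, or with the trend on GC content and length removed, the value for Sp2 is below 0 (-0.13 and -0.32). The rows of Sp2 and Sp3 overlap 5 and 4 other rows in the table, and how reads were divided among them is not shown, so both are uncertain. In mm9, Sp1 lies at 102236573 to 102266835 of chromosome 15, Sp2 at 96768739 to 96844273 of chromosome 11 and Sp3 at 72774483 to 72826734 of chromosome 2. Summed over Sp1 to Sp4, the level is 51.4 FPKM in minus_Dox and 37.3 FPKM in plus_Dox.

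Promoters of the broadly expressed genes were searched in the same way. None of the 7 windows of Sp1, Sp2, Sp3 and Sp4 held a Tcf/Lef core, and 5 of them held 2 to 5 GC boxes, a motif in 35.7% of all promoters. GC content was 53.3% to 78.7% in these 7 windows, 45.0% in the Sp5 window and 43.0%, 61.0% and 53.0% in those of Sp8. Of the Sp8 windows only that of 61.0% lies within the range of the broadly expressed genes, and that of 53.0% lies just below it. The median over all promoters was 52.7%. Those of Sp1 (chr15:102406066-102406365, plus strand) and Sp4 (chr12:118301391-118301690, minus strand) are shown as examples, with 4 and 5 GC boxes.
Sp1: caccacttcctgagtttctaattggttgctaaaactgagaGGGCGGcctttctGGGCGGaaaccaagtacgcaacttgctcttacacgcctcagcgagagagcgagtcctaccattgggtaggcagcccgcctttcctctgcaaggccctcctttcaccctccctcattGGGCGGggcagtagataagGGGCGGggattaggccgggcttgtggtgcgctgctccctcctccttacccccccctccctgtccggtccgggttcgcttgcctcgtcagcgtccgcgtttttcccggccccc
Sp4: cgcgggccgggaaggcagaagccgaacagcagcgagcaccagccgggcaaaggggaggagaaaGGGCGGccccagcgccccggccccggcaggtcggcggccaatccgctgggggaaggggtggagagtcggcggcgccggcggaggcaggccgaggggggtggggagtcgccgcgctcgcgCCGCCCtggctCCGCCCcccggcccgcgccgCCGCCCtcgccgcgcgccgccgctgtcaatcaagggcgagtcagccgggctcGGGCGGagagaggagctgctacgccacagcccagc

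**Figure D2:**
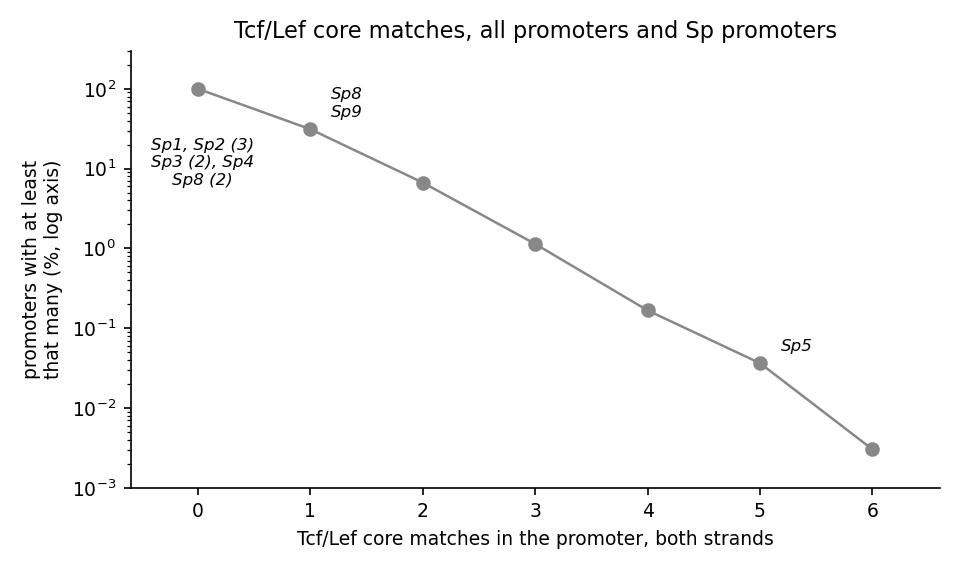
Share of all 32851 RefSeq promoters that hold at least a given number of Tcf/Lef cores on both strands (vertical log axis, in percent), against that number. Names mark the promoters of Sp genes with exactly that many cores, with the number of promoters in brackets where there are several; Sp5 stands at 5, where the share is 0.0365%.

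The tissue-restricted genes were close to the lower end of the measurable range. Sp6 is listed at 0.110 FPKM in minus_Dox and 0.164 FPKM in plus_Dox in the authors' deposited table. Its log2 fold of 0.58 (SE 1.06, interval -1.51 to 2.66) did not pass, at q = 0.87 in the authors' deposited table. Sp7 was not tested by the authors and is listed at 0.0637 FPKM in minus_Dox and 0.0620 FPKM in plus_Dox in the authors' deposited table. Sp6 spans 96874707 to 96887562 of chromosome 11, where 1 predicted gene overlaps it, and Sp7 102187039 to 102197285 of chromosome 15 (mm9). Of 5 osteoblast markers, the bone genes Runx2, Bglap and Ibsp were each under 0.1 FPKM in both groups. The other markers, which many cell types express, were higher: the phosphatase gene Alpl rose from 6.90 to 11.0 FPKM (q = 0.011 in the authors' deposited table), and Spp1 stood at 54.6 and 61.2 FPKM and did not pass. Sp9, the close relative of Sp8 in the nervous system and outside the 8 genes, was not tested either, at 0.0236 and 0.0115 FPKM in the authors' deposited table.

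The contrast between the Wnt-induced genes and their paralogues was larger than the implied errors in most pairs. Of 10 pairs of Sp5 or Sp8 with a tested paralogue outside the Wnt-induced pair, 9 had a difference of log2 fold whose interval leaves out 0. With the pair of Sp5 and Sp8 itself, 11 pairs were compared. Sp5 stood above Sp1 by 5.07 (interval 3.93 to 6.22), above Sp2 by 4.53 (3.40 to 5.65), above Sp3 by 5.18 (4.25 to 6.12) and above Sp4 by 5.39 (4.48 to 6.29). It also stood above Sp6 by 4.02, with an interval of 1.78 to 6.25. For Sp8 the differences were 2.35 from Sp1 (interval 1.31 to 3.39), 1.80 from Sp2 (0.78 to 2.82), 2.46 from Sp3 (1.65 to 3.26) and 2.66 from Sp4 (1.89 to 3.44). The pair of Sp8 and Sp6 was the exception, with a difference of 1.29 and an interval of -0.90 to 3.48.

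**Figure D3:**
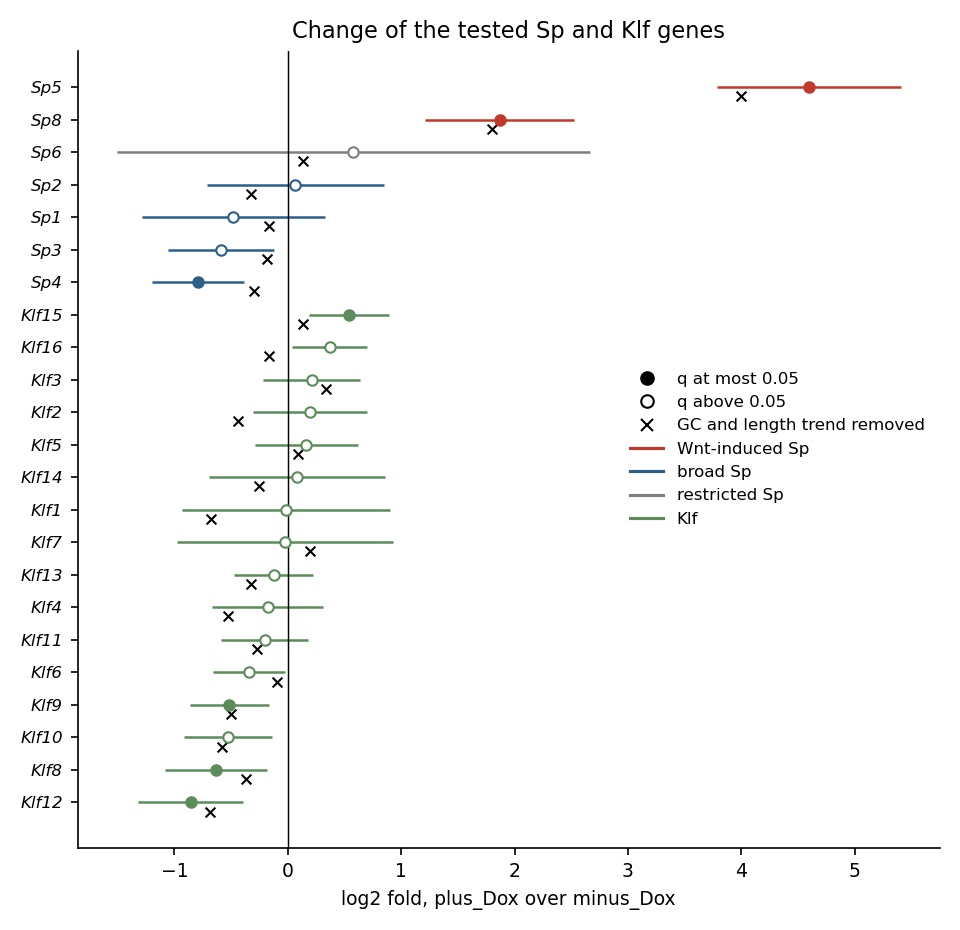
Log2 fold of plus_Dox over minus_Dox for the tested Sp and Klf genes from the authors' deposited table, with bars for the 95% interval from the implied SE, filled where q was at most 0.05; crosses show the value after removal of the trend on GC content and length. Sp5 (4.59) and Sp8 (1.87) lie apart from the other 21 genes, and the cross of Sp4 lies at -0.30.

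The folds in this table move with the composition of the transcripts, and this bears on the broadly expressed genes. Spearman's rho between log2 fold and the GC content of the longest transcript was 0.65 over 11869 genes that reached 1 FPKM, which are not independent replicates. Sp4, Sp3 and Sp1 have long transcripts with GC contents of 39.9%, 40.1% and 43.6%, against a median of 50.3%. Sp5 has 62.0% and Sp8 49.6%. The smooth trend predicts log2 folds of -0.49 for Sp4, -0.40 for Sp3 and -0.32 for Sp1, most of the deposited value in each case.

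With this trend removed, 2 of the 7 tested Sp genes passed, against 2.17% of all 17001 tested genes with a value (1.22% higher and 0.953% lower). The log2 fold of Sp4 was -0.30 on this scale, with an interval of -0.70 to 0.11, and the fall no longer passed (q = 0.89). Sp3 then stood at -0.19 and Sp1 at -0.16. The rises were kept, with Sp5 at 3.99 (interval 3.18 to 4.81, q = 6.3e-19) and Sp8 at 1.80 (interval 1.14 to 2.46, q = 2.1e-05). The same 9 pairs with paralogues, and the pair of Sp5 and Sp8, kept intervals that leave out 0, with Sp5 above the broadly expressed genes by 4.16 to 4.32 and Sp8 by 1.96 to 2.12. The median log2 fold of all genes that reached 1 FPKM was 0.20. When this shift alone was subtracted, 4 of the 7 Sp genes passed, against 9.56% of all tested genes (3.47% higher and 6.1% lower). Sp4 then stood at -0.99, and Sp3 passed as well at -0.79 (q = 0.015). The calls of Sp3 and Sp4 therefore depend on the scaling, and those of Sp5 and Sp8 did not change.

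**Figure D4:**
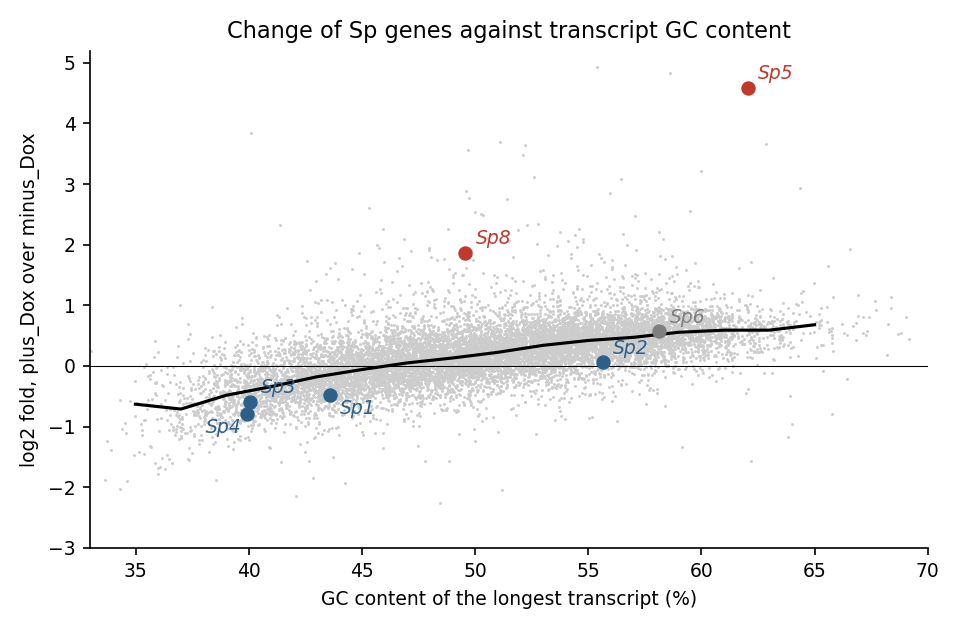
Log2 fold of plus_Dox over minus_Dox against GC content (%) of the longest transcript; grey points are tested genes that reached 1 FPKM, of which 17 lie outside the axes, and the line joins medians in bins of 2%. Sp5 (4.59) and Sp8 (1.87) lie far above the line, and the other tested Sp genes lie within the cloud of grey points.

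Several of the 8 genes lie near each other in the genome. Sp4 and Sp8 share chromosome 12, with 545 kb between their rows, and in the deposited values one fell while the other rose. On chromosome 2, Sp3 and Sp5 are 2.46 Mb apart, and Sp3 did not pass. Sp1 and Sp7 are separated by 39.3 kb on chromosome 15, and Sp2 and Sp6 by 30.4 kb on chromosome 11.

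Rows within 500 kb of Sp5 showed no change that passed. Of 10 tested there, 0 passed by the authors' test and 0 had an unadjusted p under 0.05, against 12.2% called among all tested genes. The nearest on either side were Rpl9-ps7, a ribosomal protein pseudogene, at 15.4 kb (18.7 and 20.9 FPKM, log2 fold 0.16, SE 0.21 in the authors' deposited table), and a joined locus at 12.2 kb that holds Gad1 and 3 other rows. Gad1, the gene of a GABA-synthesising enzyme, is listed at 0.0601 FPKM in minus_Dox and 0.123 FPKM in plus_Dox in the authors' deposited table (log2 fold 1.03 with an SE of 0.94, and q = 0.61). In the same locus 4933404M02Rik had the highest fold of these neighbours, 2.50 with an SE of 1.31 (q = 0.23 in the authors' deposited table). Errors of that size do not show whether the transcripts next to Sp5 moved with it.

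Near Sp8 only 2 rows were tested. Itgb8, an integrin subunit gene 305 kb away, is listed at 0.757 FPKM in minus_Dox and 0.350 FPKM in plus_Dox in the authors' deposited table, opposite to Sp8 (log2 fold -1.12 with an SE of 0.37, and q = 0.029). That fall did not pass with the trend removed (-0.60, q = 0.80). Abcb5, the nearest gene at 15.2 kb, was not tested. Around Sp4 and Sp3, 0 of 3 and 0 of 12 tested rows passed by the authors' test, against 12.2% of all tested genes. In each case 0 had an unadjusted p under 0.05. Cdca7l, a Myc-interacting gene, shares a joined locus with Dnahc11. The edge of that locus lies 35.9 kb from Sp4, and the distance of Cdca7l itself is not given. Cdca7l stood at 24.6 and 27.5 FPKM in the authors' deposited table while Sp4 fell.

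**Figure D5:**
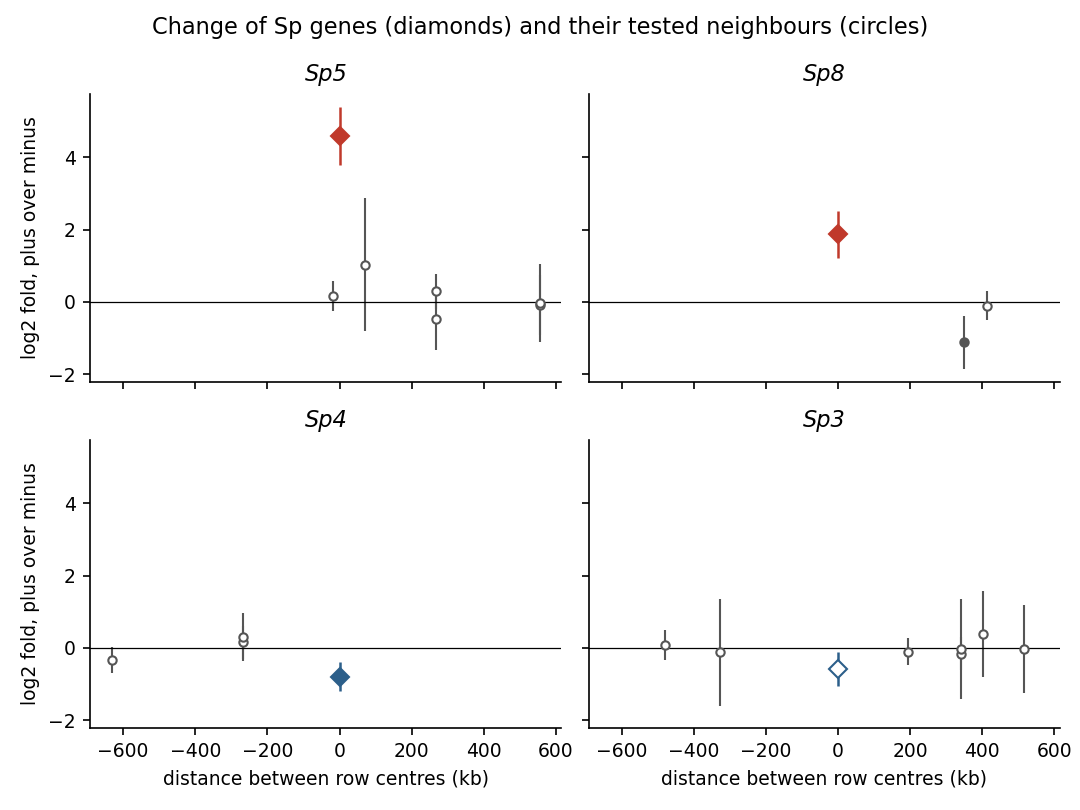
Log2 fold of plus_Dox over minus_Dox with 95% intervals for 4 Sp genes (diamonds) and their tested neighbours (circles) by distance between row centres in kb, filled where q was at most 0.05. Neighbours with an SE above 1 are not drawn. Drawn are 6 of 10 for Sp5, 2 of 2 for Sp8, 3 of 3 for Sp4 and 7 of 12 for Sp3. In the panels of Sp5 and Sp8 no drawn circle reaches the diamond, at 4.59 and 1.87. Of the undrawn neighbours of Sp5, 4933404M02Rik has the highest log2 fold, 2.50.

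The surroundings of the other pairs are gene-rich, and most rows there did not pass. Near Sp1 5 of 30 tested rows rose, against 8.98% of all tested genes: Krt8, Krt18, Aaas, Tarbp2 and Atp5g2, and all 5 lie within 500 kb of Sp7 too. Copz2 and Scrn2 were the 2 of 28 tested rows that rose near Sp2, and the 2 of 31 near Sp6. Over all 87 tested neighbours of the 8 genes, 7 rose and 1 fell, with a median log2 fold of 0.29 against 0.20 for all tested genes. These counts are near or below the 8.98% that rose and the 3.22% that fell among all tested genes. With the median shift subtracted, 3 of these neighbours were called higher and 2 lower, against 3.47% and 6.1% of all tested genes. With the trend removed 0 of 83 passed, near the 2.17% of all tested genes with a value. On that scale 1 neighbour had an unadjusted p under 0.05.

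The Klf genes are the nearest relatives of the Sp genes and share their zinc finger domain. Of 16 tested, 1 rose and 3 fell, against 8.98% and 3.22% of all tested genes, and the median log2 fold was -0.08. Klf15, a metabolic regulator, went up from 7.54 to 10.9 FPKM (log2 fold 0.54 with an SE of 0.18, and q = 0.029, in the authors' deposited table). The repressor gene Klf12 fell from 1.15 to 0.636 FPKM (log2 fold -0.86 with an SE of 0.24, and q = 0.0056, in the authors' deposited table), as did Klf8 (2.72 to 1.75 FPKM, q = 0.046) and Klf9 (12.0 to 8.40 FPKM, q = 0.033). The highest levels were those of Klf6 (25.3 and 19.9 FPKM) and Klf16 (12.9 and 16.7 FPKM) in the authors' deposited table, and neither passed. Klf2, Klf4 and Klf5, which support the naive stem cell state and are named here after their values were seen, had log2 folds of 0.19, -0.18 and 0.16 and did not pass. With the trend removed 0 of the 16 passed, near the 2.17% of all tested genes with a value. Of the 16, 4 had an unadjusted p under 0.05 on that scale, all lower in plus_Dox.

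Of other Wnt pathway genes of the streak, a list without Sp genes, 26 were tested. They include mediators beside targets: Ctnnb1, the gene of beta-catenin, and Tcf7, Tcf7l1 and Tcf7l2, which did not pass. The list was chosen with earlier results of these data known, so its counts describe it and give no independent support. Lef1, which the transgene carries, is among the 26, and its value does not separate transgene from endogenous RNA. Of the 26, 13 rose, 0 fell by the authors' test (and 0 were lower at an unadjusted p under 0.05) and 13 did not pass, with a median log2 fold of 0.75 against 0.20 for all tested genes. Without Lef1, 12 of 25 rose, with a median of 0.67, against 8.98% of all tested genes. Wnt8a had the largest fold, 4.93 (SE 0.34), and lay just above Sp5 in the authors' deposited table. Fgf8 (3.67), T (3.64), Evx1 (3.29) and Tnfrsf19 (2.88) in the authors' deposited table lay between Sp5 and Sp8. Lef1 itself stood at 2.75. With the trend removed 11 of the 13 passed, Lef1 included, Fgf17 and Cyp26a1 being the exceptions. The untested genes of the list were Cdx1, Cdx4, Wnt3a and Msgn1, and none is listed above 0.0309 FPKM in the authors' deposited table.

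Marker lists were measured beside these rises. Over all tested genes 12.2% passed, 8.98% higher in plus_Dox and 3.22% lower. Of 9 tested markers of pluripotent and epiblast cells 4 rose, Nanog (28.6 to 109.7 FPKM), Tdgf1 (31.3 to 190.5 FPKM), Dppa5a and Utf1, and Sox2 fell (56.2 to 30.9 FPKM, all in the authors' deposited table). Of 6 nascent mesoderm markers, some of them also in the list of Wnt pathway genes, 4 were tested. T, Eomes and Mixl1 rose, and Tbx6 did not pass (q = 0.16 in the authors' deposited table). The summed level of the 6 was 8.86 FPKM in minus_Dox and 25.2 FPKM in plus_Dox, most of it from Eomes (7.83 and 18.9 FPKM). Mesp1 and Msgn1 were under 0.1 FPKM in both groups. Neural cells are another site of Sp8. Of their 8 markers 6 are named in the table, 4 were tested and 0 passed by the authors' test (1, Nes, at an unadjusted p under 0.05). Their sum was 24.4 and 32.2 FPKM, nearly all from Nes, and Neurog2 and Olig2 were under 0.1 FPKM. For fibroblasts, 0 of 8 tested markers passed (3 higher at an unadjusted p under 0.05), with sums of 18.6 and 23.6 FPKM, most of it from Thy1. In lists this short, 0 passing is near the 12.2% of all tested genes. It does not show that neural cells or fibroblasts stayed the same. The part of any listed cell type in the rises of Sp5 and Sp8 was not tested.

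Genes like Sp5 and Sp8 were sought among those that passed, had 0.5 to 2 times their FPKM in plus_Dox and named a single gene, and were ranked by the difference of log2 fold over the pair of group values. For Sp5, 335 genes qualified, and the closest was Ism2, a secreted protein gene (0.0449 and 1.28 FPKM, log2 fold 4.83 in the authors' deposited table). The next were Gm7601 (5.48), Alox15 (3.48), Evx1 (3.29) and A730017C20Rik (3.29), already 0.89 to 1.31 away. For Sp8, 316 genes qualified, and the 5 closest lay within 0.032. They were Efemp1, an extracellular matrix gene (0.358 and 1.30 FPKM in the authors' deposited table), the predicted genes Gm5239, Gm9761 and Gm10913, and Frzb, a secreted Wnt antagonist (0.264 and 0.986 FPKM in the authors' deposited table). Efemp1 and Frzb passed with the trend removed, and the 3 predicted genes did not.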

How the data were processed

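Polyadenylated RNA of 6 libraries was analysed from 1 deposited table. Per the file headers, the authors computed 1 FPKM value per group, a log2 fold change between the groups (plus_Dox over minus_Dox), a test statistic (a score without fixed range), and its p-value and q-value. Cufflinks 2.0.2, Cuffdiff, TopHat2 2.0.8, Bowtie and Picard are listed without roles, beside mm9, per the submitters' processing notes. The annotation's name is not stated in the sources used here. A placeholder stands in the column of fold changes that the authors deposited where a group is listed at 0. The deposited p-values were checked against a normal distribution of the statistic, two-sided (0 of the tested rows with a finite fold off by more than 1e-05). The statistic has the opposite sign to the fold.

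Sp1 to Sp8, the gene lists and the tests were chosen with earlier results of these data known. The authors' test over 18114 rows was used, since the table has 0 columns of single libraries. An SE is the log2 fold over the statistic, without sign. Differences between genes have no p-value. The trend is a least-squares fit of cubic splines (6 knots each) to GC content and log2 length of the longest basic GENCODE vM21 transcript (GRCm38, used for no coordinates). It has a value for 17001 rows. Its p-values use the deposited SE, with Benjamini-Hochberg adjustment, and the code was tested on simulated data. Alternatives were other q-value thresholds, a 2-fold minimum, an FPKM minimum, pseudocounts, scalings and a 1 Mb window. RefSeq promoters were matched by symbol for 6 of the 8 genes. Named genes were the 8 Sp genes, Klf genes that passed or had the highest mean, and the 6 largest rises among Wnt pathway genes. The nearest and passing neighbours, and the 5 genes most like Sp5 and Sp8, were named too. Not every gene this rule selects is printed. Python 3.11.15, numpy 2.4.6, pandas 2.3.3 and scipy 1.17.1 were used.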

Additional observations from a re-analysis of the deposited data

How the results depend on the processing

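Sp5 and Sp8 passed at every q-value threshold and scaling tried (0.01, 0.1, the median shift, the trend). A pseudocount of 1 FPKM reduced their log2 folds to 1.23 and 0.72, and that of Sp4 to -0.51. A pseudocount of 0.1 FPKM gave 3.29 for Sp5. With 0.1 FPKM, Sp5 stood above Sp1 by 3.77, Sp2 by 3.23, Sp3 by 3.88, Sp4 by 4.04 and Sp8 by 1.70. Sp4 did not pass with the trend removed (-0.30). Sp3 passed at q = 0.1 (-0.59) and with the median shift subtracted (-0.79). Sp2 turned to -0.13 with the shift and to -0.32 with the trend removed. Calls over all genes went from 2210 to 1208 at q = 0.01, 491 with a 2-fold minimum and 369 with the trend removed. Subtracting the median shift gave 618 higher and 1087 lower genes, against 1626 and 584. The 4 Klf calls went to 1 at q = 0.01 and to 0 with a 2-fold minimum or the trend removed. The 8 calls among neighbours went to 4 at q = 0.01, 5 with the shift subtracted, 2 with a 2-fold minimum, 0 with the trend removed and 20 in a 1 Mb window. For results that moved, the cause was not tested. Sequencing depth is unknown and limits Sp5 in minus_Dox, Sp6 and Sp7 most. Leaving out single replicates was not run, since the table holds no values of single libraries. No paired analysis was possible because the columns carry no replicate numbers.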

Other observations

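The other promoters searched did not share the core count of Sp5. Of the 30 listed Wnt pathway genes of the streak, targets and mediators, 19 had a RefSeq promoter. Of their 28 promoters 8 (28.6%) held a Tcf/Lef core, against 31.2% of all promoters. The most cores among them, 3, were in promoters of Dkk1, Lef1 and Msgn1. Of 14 promoters of 13 Klf genes, 1 (7.14%) held a core, that of Klf6. Sp9, which was not tested, held 1 core in the same longer form as Sp8, CTTTGAA, at base -22 on the minus strand. The first Sp8 start held 2 TATA boxes (TATAAA, in 13.6% of promoters), at bases -230 and -118, and no other Sp promoter held one. One promoter of Sp2 held 6 CCAAT boxes, and 37.4% of all promoters held at least 1.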
